A study of Rattus norvegicus with 6 samples.

Results

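The TNF superfamily comprises cytokine ligands and their cell-surface receptors. Its rat genes were taken as the protein-coding rows of the count table whose symbol begins with Tnfsf or Tnfrsf and a number, together with Tnf, Lta, Ltb, Ltbr, Fas, Faslg, Cd40, Cd40lg, Cd27, Cd70, Ngfr, Eda, Edar and Eda2r. This gave 42 of 33565 rows, 18 of them ligand genes and 24 receptor genes. Both groups held primary heart cells labelled as cardiomyocytes, from Sprague-Dawley rats at postnatal day 7, grown with 10% fetal bovine serum. The control group (3 libraries) received vehicle and the progesterone group (3 libraries) received 100 nM progesterone, a steroid hormone, each for 24 h. The labels call the libraries biological replicates without tying them to separate animals or cultures, so the p-values cover only the spread among these libraries, part of which may be technical. The series title links progesterone to the coactivator YAP, cardiomyocyte proliferation and repair, and the labels imply the single comparison of progesterone with vehicle.

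TNF superfamily ligands are made as membrane proteins that act as trimers, on the cell or after proteases release them. Their receptors either carry a death domain, which recruits adaptors such as TRADD and FADD, or bind TRAF adaptors directly and lead to NF-kB and MAP kinase signalling. In the heart, TNF and its receptors are studied as regulators of inflammation, contractile function and cell survival, and several members are themselves transcribed in response to NF-kB or interferon.

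Promoter windows, from 250 bases before to 50 bases after the annotated start, were found in RefSeq's rat assembly GRCr8 for 32 of the 42 genes. Windows of 4 genes whose levels differed between the groups are shown, since they carry the start regions of a TNF receptor, of a pair of ligands lower with progesterone and of a receptor higher with progesterone. Capitals mark a match to the interferon-stimulated response element (ISRE, searched as GAAA, any 2 bases, GAAA) in Tnfrsf1b and Tnfsf13b, and to the STAT-binding GAS motif (searched as TTC, any 3 bases, GAA) in Tnfrsf12a. Tnfsf10 had no match to any motif searched. Each line is written 5′ to 3′ on the strand of its gene.
Tnfrsf1b: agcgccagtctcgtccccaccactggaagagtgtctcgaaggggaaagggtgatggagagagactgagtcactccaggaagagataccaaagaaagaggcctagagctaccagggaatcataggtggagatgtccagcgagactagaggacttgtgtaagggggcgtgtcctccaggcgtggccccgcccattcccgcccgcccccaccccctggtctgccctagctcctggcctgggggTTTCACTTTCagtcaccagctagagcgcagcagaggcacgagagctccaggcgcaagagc
Tnfsf13b: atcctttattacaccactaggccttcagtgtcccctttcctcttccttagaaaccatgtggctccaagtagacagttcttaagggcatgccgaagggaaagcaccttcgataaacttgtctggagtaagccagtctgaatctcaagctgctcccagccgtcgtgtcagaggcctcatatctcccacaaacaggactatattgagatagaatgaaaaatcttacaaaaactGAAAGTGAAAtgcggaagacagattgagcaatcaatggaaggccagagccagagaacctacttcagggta
Tnfsf10: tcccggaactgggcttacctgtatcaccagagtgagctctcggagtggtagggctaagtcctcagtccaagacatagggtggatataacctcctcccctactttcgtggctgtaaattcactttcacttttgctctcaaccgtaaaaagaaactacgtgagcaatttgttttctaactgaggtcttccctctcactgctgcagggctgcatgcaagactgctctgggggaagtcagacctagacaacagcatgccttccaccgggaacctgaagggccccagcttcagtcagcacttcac
Tnfrsf12a: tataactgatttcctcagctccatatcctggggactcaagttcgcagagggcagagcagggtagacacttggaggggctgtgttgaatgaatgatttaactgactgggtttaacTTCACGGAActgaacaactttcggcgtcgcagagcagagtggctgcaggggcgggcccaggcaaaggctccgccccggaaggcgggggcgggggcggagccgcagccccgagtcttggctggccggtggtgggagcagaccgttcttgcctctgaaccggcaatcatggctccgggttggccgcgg
These windows lie at chr5:162387362-162387661 (minus strand) for Tnfrsf1b, chr16:86194450-86194749 (minus strand) for Tnfsf13b, chr2:112136689-112136988 (plus strand) for Tnfsf10 and chr10:13213599-13213898 (minus strand) for Tnfrsf12a. In Tnfrsf1b the match begins 10 bases before the start and reads on the opposite strand, and in Tnfsf13b it begins 20 bases before the start. The GAS match of Tnfrsf12a begins 136 bases before the start. On either strand, the ISRE letters were in 4 of the 32 windows (12.5%; Fas, Tnfrsf17, Tnfrsf1b and Tnfsf13b) and in 3.92% of all 33469 promoter windows of that length. An NF-kB motif (GGG, any 2 bases, TTTCC) was in 3 windows (9.38%; Cd70, Ltb and Tnfrsf4) against 1.53% of all windows, and the GAS letters were in 3 (9.38%; Lta, Ltb and Tnfrsf12a) against 8.87%. A steroid receptor element (GNACA, any 3 bases, TGTNC) was in none of the 32 windows and in 0.439% of all windows. Of the genes with a match, Cd70, Lta, Ltb and Tnfrsf17 had too few counts to test, and Fas and Tnfrsf4 did not differ at the threshold used. A match is a description of letters and not of a bound site.

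Libraries held 21156793 to 25376220 counts, and Pearson correlations of log2 values were 0.992 to 0.993 within groups and 0.919 to 0.927 between them. All 6 cardiomyocyte markers (Myh6, Tnnt2, Tnni3, Actn2, Ryr2 and Pln) were read, at a summed level of 8812 to 9456 CPM (counts scaled to library size with edgeR's TMM factors) in control and 7369 to 8076 CPM in progesterone libraries, with 1 higher and 3 lower. All 6 fibroblast markers were read as well, at 24524 to 25483 and 31144 to 33552 CPM, with 3 higher and 2 lower (Pdgfra, 804 and 370 CPM, and Dcn, 2094 and 946 CPM). Macrophage markers summed to 13.7 to 23.2 CPM in control and 47.5 to 54.0 CPM in progesterone libraries, and all 5 that were tested, of 7 in the table, were higher with progesterone. The 7 T and NK cell markers summed to 0.984 to 2.06 and 3.77 to 4.63 CPM with Cd3e and Cd3d at 0. Of these only Cd4 was called higher (0.591 CPM in control and 3.09 CPM in progesterone libraries). Cd8a did not pass and the others were not tested, so the sum mostly follows Cd4. The 4 B cell markers in the table summed to at most 0.189 CPM with Cd79b and Ms4a1 at 0. Smooth muscle and pericyte markers (6 of 6 higher) summed to 1957 to 2330.0 CPM in control and 4661 to 5210 CPM in progesterone libraries. The 5 endothelial markers in the table summed to 119 to 158 and 81.7 to 116 CPM, with 1 higher and 1 lower. The part of these cell types in the results that follow was not tested, and in bulk RNA fewer cells of a type and less RNA per cell cannot be told apart.

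Most TNF superfamily genes that differed between the groups were lower with progesterone. Of the 26 members with enough counts for edgeR's quasi-likelihood test, 14 were lower, 3 were higher (Ngfr, Tnfrsf21 and Tnfrsf12a) and 9 did not pass an adjusted p of 0.05. The 17 that changed are 65.4% of those tested, against 63.0% of all 15075 genes tested, so the share that changed was near the background. By direction, 53.8% of the members tested were lower against 31.8% of all genes, and 11.5% were higher against 31.2%. At a change of 2-fold or more, 8 members were lower and 2 higher, where 9.31% and 7.14% of all genes were. The CPM values of the groups did not overlap in 20 of the 26, against 68.6% of all genes tested. The median log2 fold change over the 26 was -0.43, beside 0.00 over all genes. Of the 26, 19 passed the count filter in both groups and 6 through the control group alone (Tnfsf10, Tnfsf13b, Cd40, Tnfrsf9, Tnfrsf4 and Edar), so these counts and the median are descriptions and support nothing about the family as a whole. Upper quartile scaling moved the median of all genes to 0.10 and the share of changed genes that were higher from 49.6% to 60.1%. Under it 4 members were higher, Eda2r being the additional gene, and 14 were lower.

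**Figure D1:**
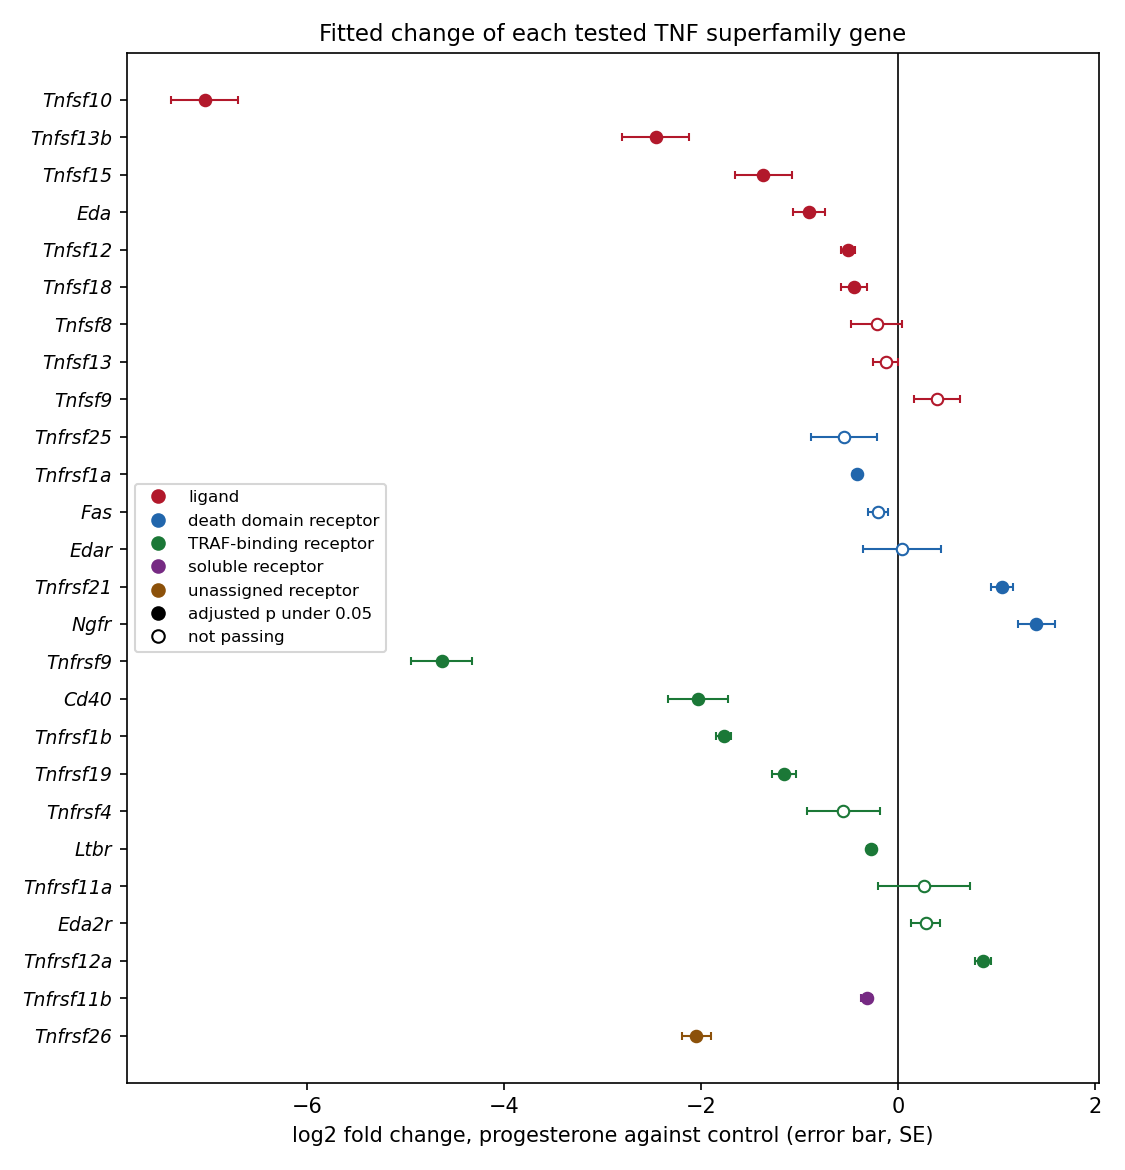
Fitted log2 fold change of progesterone against control for each of the 26 tested TNF superfamily genes, with SE bars, coloured by role; filled points passed an adjusted p of 0.05 and open points did not. Tnfsf10 at -7.04 and Tnfrsf9 at -4.63 lie farthest below 0, and Ngfr at 1.40 lies farthest above.

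Among the ligands, 9 of 18 genes were tested, of which 6 were lower and 0 higher with progesterone, and 3 did not pass, where 31.8% of all genes were lower and 31.2% higher. Of the 6, Tnfsf10 and Tnfsf13b passed the count filter through the control group alone, so the count supports nothing about the ligands as a class. The summed level of all 18 ligand genes was 73.4, 70.2 and 72.7 CPM in the control libraries and 46.5, 46.3 and 43.0 CPM in the progesterone libraries. The sums did not overlap.

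Tnfsf10 encodes TRAIL, a ligand that can trigger apoptosis through death receptors. Tnfsf10 (chr2:113007549-113026899, plus strand) read 8.31, 8.80 and 9.15 CPM in the control libraries and 0, 0.0471 and 0.130 CPM in the progesterone libraries. These values are 211, 205 and 209 counts against 0, 1 and 3 counts, so the transcript was almost unread in every progesterone library and well read in every control library. Its fitted log2 fold change was -7.04 ± 0.34 (SE; edgeR adjusted p = 1.1e-10), a 132-fold lower level. Because so few progesterone counts remain, the size of that fold rests on single libraries, and without progesterone replicate 3 it was 301-fold (log2 fold change -8.23). The TRAIL receptor gene Tnfrsf10b was not among the rows that the selection rule found, so it was not analysed here.

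Tnfsf13b encodes BAFF, a survival factor for B cells. Tnfsf13b (chr16:85275678-85306366, minus strand) read 1.26, 1.37 and 1.75 CPM in control and 0.284, 0.235 and 0.260 CPM in progesterone libraries, with a log2 fold change of -2.47 ± 0.34 (SE; edgeR adjusted p = 1.2e-05), 5.52-fold lower. The groups did not overlap. The progesterone values were only 6, 5 and 6 counts, so their narrow range says little about the spread of the level. Its receptor genes Tnfrsf13b (TACI), Tnfrsf13c (BAFF receptor) and Tnfrsf17 (BCMA) were too low to test, with 2, 0 and 31 counts over the control libraries.

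Tnfsf15 encodes TL1A, the ligand of the death receptor DR3. Tnfsf15 read 1.93, 1.85 and 2.45 CPM in control and 0.758, 1.13 and 0.520 CPM in progesterone libraries, 2.59-fold lower (log2 fold change -1.37 ± 0.29 SE, edgeR adjusted p = 0.00071). Every progesterone value was below every control value, although the progesterone libraries differed among themselves. Eda encodes ectodysplasin A, which directs the development of hair, teeth and glands. Eda read 6.26, 6.05 and 6.22 CPM in control and 3.41, 2.73 and 3.72 CPM in progesterone libraries, 1.88-fold lower (log2 fold change -0.91 ± 0.16 SE, edgeR adjusted p = 0.00013). The control values of Eda were close together and the groups were apart. Gene counts do not separate the Eda isoforms that bind Edar or Eda2r.

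Tnfsf12 encodes TWEAK, a ligand with roles in tissue repair and remodelling. Tnfsf12 (chr10:56290780-56300077, minus strand) read 27.2, 26.8 and 28.5 CPM in control and 17.9, 20.7 and 19.4 CPM in progesterone libraries, 1.42-fold lower (log2 fold change -0.51 ± 0.07 SE, edgeR adjusted p = 1.6e-05). The groups did not overlap. Tnfsf18 encodes the GITR ligand, a costimulator of T cells. Tnfsf18 read 17.7, 14.7 and 13.3 CPM in control and 12.9, 11.2 and 9.35 CPM in progesterone libraries, 1.37-fold lower (log2 fold change -0.45 ± 0.13 SE, edgeR adjusted p = 0.0091). Its lowest control value lay just above its highest progesterone value.

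The ligands that did not pass were Tnfsf13, Tnfsf8 and Tnfsf9. Tnfsf13 (APRIL), which shares receptors with BAFF and whose row lies 827 bases from that of Tnfsf12 on the same strand, was 7.23 ± 0.135 CPM in control and 6.61 ± 0.737 CPM in progesterone libraries (SD, log2 fold change -0.13 ± 0.13 SE, edgeR adjusted p = 0.40). Tnfsf8, the CD30 ligand, had a log2 fold change of -0.22 ± 0.26 (SE, edgeR adjusted p = 0.47). Tnfsf9, the 4-1BB ligand, read 1.69, 1.46 and 1.53 CPM in control and 2.56, 1.74 and 1.86 CPM in progesterone libraries (log2 fold change 0.39 ± 0.23 SE, edgeR adjusted p = 0.15). The groups of Tnfsf13 and of Tnfsf9 did not overlap, but the differences were not large against their SE.

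The founding cytokine genes were barely read. Tnf had 3, 3 and 4 counts in the control libraries and 0 in each progesterone library, which is at least 3.05-fold lower when 3 counts over the group stand for 0. A row annotated as a tumor necrosis factor-like copy, LOC103694380 (chr20:4855829-4858447), had 12, 14 and 4 counts in control and 0, 1 and 3 counts in progesterone libraries. LOC103694380 lies between the Lta and Ltb rows, where the GRCr8 assembly places Tnf. The row named Tnf lies at chr20:5189390-5192000 on the minus strand, so its counts and fold alone may not stand for the gene. Reads may be split between the copies, whose sum was 40 counts in control and 4 in progesterone libraries. Lta, lymphotoxin alpha, had 2 counts in control and 3 in progesterone libraries. Ltb, lymphotoxin beta, had 4 and 0 counts, and 32 and 1 counts together with its annotated copy LOC103694381, of which 25 counts came from control replicate 3. The Lta and Ltb rows lie within the spans of MHC class I rows, of which RT1-CE7 had 6748 counts in control and 127 in progesterone libraries.

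Among the other ligands below the filter, Faslg, the Fas ligand that triggers apoptosis, had 6, 3 and 2 counts in control and 10, 1 and 8 counts in progesterone libraries. Tnfsf4, the OX40 ligand, had 6, 3 and 5 counts in control and 1, 2 and 1 counts in progesterone libraries. Cd70, the CD27 ligand, had 0 counts in control and 2 in progesterone libraries. The CD40 ligand gene Cd40lg, the RANK ligand gene Tnfsf11 and the LIGHT gene Tnfsf14 had no count in any library, for which a count of 0 over a group allows up to 0.0419 CPM in control and 0.0458 CPM in progesterone libraries (3 counts, counting error only). Levels under these limits were not detectable at this depth.

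**Figure D2:**
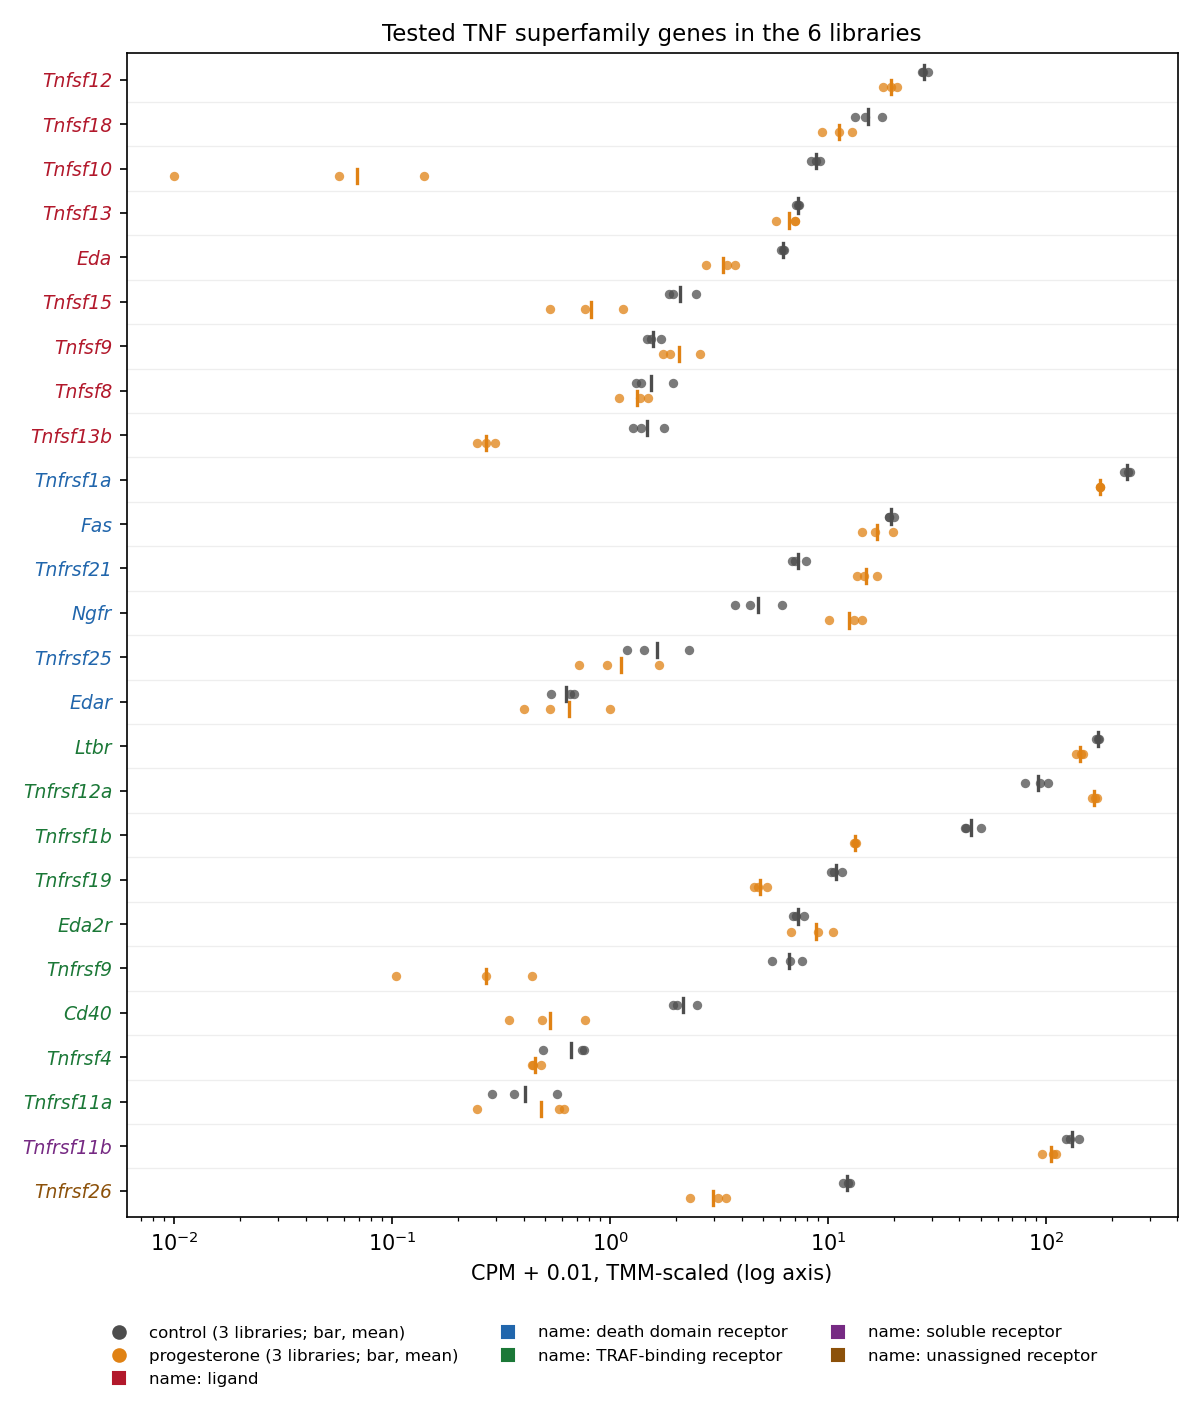
CPM plus 0.01 in each of the 6 libraries for the 26 tested TNF superfamily genes, on a log axis, with a bar at each group's mean; names are coloured by role. The control and progesterone points are farthest apart for Tnfsf10 (8.75 against 0.0590 CPM) and Tnfrsf9 (6.59 against 0.260 CPM).

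All 6 death domain receptor genes were tested, of which Tnfrsf21 and Ngfr were higher, Tnfrsf1a was lower and Fas, Tnfrsf25 and Edar did not pass. The 33.3% that were higher were near the 31.2% of all genes, and 16.7% were lower against 31.8%. Tnfrsf1a encodes TNFR1, the widely expressed receptor through which TNF drives NF-kB and cell death signalling. Tnfrsf1a (chr4:157864969-157877633, plus strand) read 238, 242 and 226 CPM in control and 176, 177 and 176 CPM in progesterone libraries, 1.34-fold lower (log2 fold change -0.42 ± 0.04 SE, edgeR adjusted p = 3.4e-07). The progesterone values were nearly equal to each other and all below the control values.

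Tnfrsf21 encodes death receptor 6, studied in neurons and T cells. Tnfrsf21 read 7.05, 6.78 and 7.88 CPM in control and 16.7, 14.6 and 13.6 CPM in progesterone libraries, 2.07-fold higher (log2 fold change 1.05 ± 0.11 SE, edgeR adjusted p = 7.8e-07). Every progesterone value was above every control value. Ngfr encodes p75NTR, the low-affinity neurotrophin receptor, which is found on Schwann cells, neurons and some mesenchymal cells. Ngfr read 3.74, 4.38 and 6.13 CPM in control and 10.0, 13.2 and 14.3 CPM in progesterone libraries, 2.64-fold higher (log2 fold change 1.40 ± 0.19 SE, edgeR adjusted p = 6.2e-05). The groups did not overlap, although the values within each were spread out. Among Schwann cell and neuron markers, Sox10 was higher (0.592 CPM in control and 2.66 CPM in progesterone libraries), Tubb3 was lower (34.2 and 20.1 CPM) and S100b did not pass (1.92 and 1.89 CPM). The part of these cells in the Ngfr result was not tested.

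Fas, the receptor of the Fas ligand, read 19.1, 20.1 and 19.0 CPM in control and 19.8, 14.3 and 16.3 CPM in progesterone libraries (log2 fold change -0.21 ± 0.10 SE, edgeR adjusted p = 0.093). Progesterone replicate 1 lay among the controls, and without it Fas passed (log2 fold change -0.34, edgeR adjusted p = 0.0058). Tnfrsf25, which encodes DR3, read 1.18, 1.42 and 2.28 CPM in control and 1.66, 0.706 and 0.952 CPM in progesterone libraries (log2 fold change -0.55 ± 0.34 SE, edgeR adjusted p = 0.17). It too passed without progesterone replicate 1 (log2 fold change -0.95, edgeR adjusted p = 0.032). Edar, the ectodysplasin receptor, had a log2 fold change of 0.03 ± 0.39 (SE, edgeR adjusted p = 0.95).

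Of the 16 receptor genes that signal through TRAF adaptors without a death domain, 9 were tested, 5 were lower, 1 was higher and 3 did not pass, where 31.8% of all genes were lower and 31.2% higher. At 2-fold or more 4 were lower, against 9.31% of all genes, and of these Tnfrsf9 and Cd40 passed the count filter through the control group alone. Tnfrsf9 encodes 4-1BB, a costimulatory receptor of T cells that other cells can also make. Tnfrsf9 (chr5:168009393-168035810, plus strand) read 5.51, 7.56 and 6.70 CPM in control and 0.426, 0.0941 and 0.260 CPM in progesterone libraries, 24.8-fold lower (log2 fold change -4.63 ± 0.31 SE, edgeR adjusted p = 1e-08). All control libraries read it and all progesterone libraries were near 0. Of the 7 T and NK cell markers, Cd3e and Cd3d had no count, Cd3g and Ncr1 had 1 count in control and 0 in progesterone libraries, and Cd2 had 14 and 3 counts. Cd4 was higher with progesterone (42 and 203 counts, edgeR adjusted p = 0.00074), and Cd8a did not pass (44 and 61 counts). The part of these cells in the Tnfrsf9 result was not tested.

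Tnfrsf1b encodes TNFR2, the second TNF receptor, which binds TRAF2. Tnfrsf1b (chr5:163136390-163167299, minus strand) read 42.6, 43.1 and 50.4 CPM in control and 13.3, 13.1 and 13.3 CPM in progesterone libraries, 3.42-fold lower (log2 fold change -1.77 ± 0.08 SE, edgeR adjusted p = 1.5e-11). The groups were far apart and the progesterone values nearly equal. Cd40, a receptor of antigen-presenting and vascular cells, read 1.93, 2.02 and 2.50 CPM in control and 0.332, 0.753 and 0.476 CPM in progesterone libraries, 4.09-fold lower (log2 fold change -2.03 ± 0.30 SE, edgeR adjusted p = 2.8e-05). Its groups did not overlap, with all levels low. The macrophage marker sum given above was higher with progesterone. Of the general leukocyte and dendritic cell markers Ptprc rose from 2.56 to 8.01 CPM and Itgax rose, while Cd74 fell. Of the endothelial markers Tek was lower (29.0 CPM in control and 8.03 CPM in progesterone libraries) and Vwf was higher (4.81 and 6.62 CPM). Cdh5, Kdr and Tie1 did not pass. The part of these cells in the Tnfrsf1b and Cd40 results was not tested.

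Tnfrsf19 encodes TROY, a receptor known from the nervous system and from stem cells. Tnfrsf19 read 10.3, 11.6 and 10.6 CPM in control and 5.21, 4.57 and 4.76 CPM in progesterone libraries, 2.23-fold lower (log2 fold change -1.16 ± 0.12 SE, edgeR adjusted p = 5.7e-07). The groups were well apart. Ltbr, the lymphotoxin beta receptor of stromal cells, whose row (chr4:157822840-157829241, minus strand) lies 35727 bases from that of Tnfrsf1a, read 172, 176 and 169.6 CPM in control and 144, 137 and 147 CPM in progesterone libraries. This difference was 1.21-fold (log2 fold change -0.27 ± 0.04 SE, edgeR adjusted p = 4.2e-05), small beside the others but with no overlap.

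Tnfrsf12a encodes Fn14, the receptor of TWEAK, a growth factor-inducible protein of injured and growing tissue. Tnfrsf12a (chr10:12995904-12997930, minus strand) read 102, 94.0 and 79.6 CPM in control and 167, 171 and 162 CPM in progesterone libraries, 1.81-fold higher (log2 fold change 0.86 ± 0.08 SE, edgeR adjusted p = 2.2e-05). The control values spread more than the progesterone values, and the groups did not overlap. It was the only TRAF-binding receptor gene that was higher under TMM scaling. Eda2r, the receptor of an ectodysplasin isoform and a p53 target, read 6.85, 7.08 and 7.75 CPM in control and 10.5, 6.73 and 9.01 CPM in progesterone libraries (log2 fold change 0.28 ± 0.15 SE, edgeR adjusted p = 0.12). Progesterone replicate 2 lay below the controls, and without it Eda2r passed (log2 fold change 0.43, edgeR adjusted p = 0.011), as it did under upper quartile scaling (log2 fold change 0.37, edgeR adjusted p = 0.040). Tnfrsf4 (OX40) and Tnfrsf11a (RANK) did not pass either, with log2 fold changes of -0.56 ± 0.37 and 0.26 ± 0.47 (SE; edgeR adjusted p = 0.20 and 0.65).

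The 7 TRAF-binding receptor genes below the filter include receptors known mainly from lymphocytes. Tnfrsf17 had 14, 12 and 5 counts in control and 4, 7 and 7 counts in progesterone libraries, and Tnfrsf8 (CD30) had 4, 7 and 3 counts and 0, 2 and 1 counts. Tnfrsf18 (GITR) had 1, 1 and 7 counts in control and 0 in each progesterone library, with 7 of the 9 control counts from control replicate 3, so no fold is given. Tnfrsf14 (HVEM) had 1, 5 and 0 counts in control and 0 in each progesterone library. For Tnfrsf14, 5 of the 6 control counts came from control replicate 2, so no fold is given. Cd27 had 10 and 6 counts over the groups, Tnfrsf13b 2 and 0, and Tnfrsf13c 0 and 1. When no count filter was applied, the row named Tnf (edgeR adjusted p = 0.015), Tnfrsf18 (edgeR adjusted p = 0.022) and Fas (edgeR adjusted p = 0.033) were also lower, which made 17 lower members.

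Tnfrsf11b encodes osteoprotegerin, a secreted receptor that binds the RANK ligand and TRAIL. Tnfrsf11b read 141, 129 and 124 CPM in control and 111, 108 and 96.1 CPM in progesterone libraries, 1.25-fold lower (log2 fold change -0.32 ± 0.06 SE, edgeR adjusted p = 0.00043). The groups did not overlap, while of the ligands it binds Tnfsf11 was not read and Tnfsf10 was almost unread with progesterone. Tnfrsf26, known from mouse as one of a small cluster of TNF receptor genes, was placed in no signalling class. Tnfrsf26 (chr1:216808632-216828651, minus strand) read 12.6, 11.7 and 12.3 CPM in control and 2.32, 3.39 and 3.12 CPM in progesterone libraries, 4.14-fold lower (log2 fold change -2.05 ± 0.14 SE, edgeR adjusted p = 6.3e-09). Its groups were far apart.

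**Figure D3:**
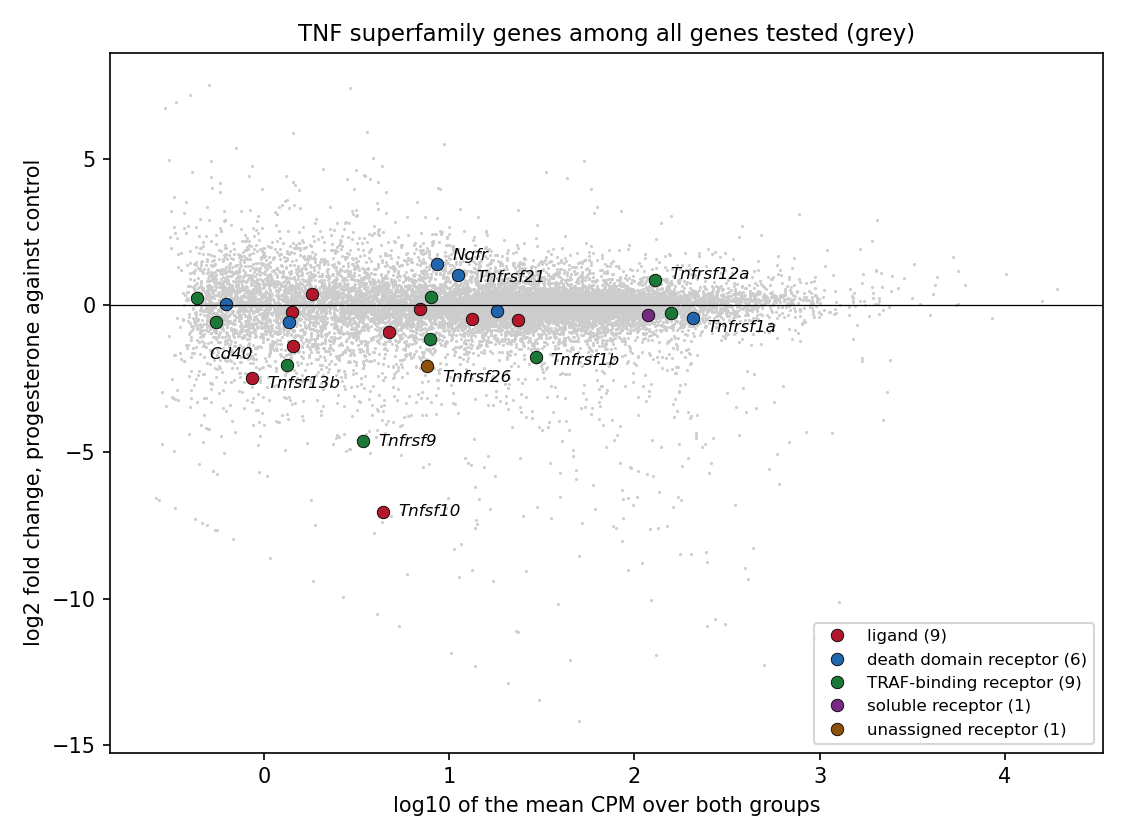
Log2 fold change of progesterone against control over the log10 of mean CPM for all 15075 genes tested (grey) and for the 26 tested TNF superfamily genes, coloured by role. The members span levels from under 1 CPM to over 100 CPM, and Tnfsf10 has the lowest log2 fold change among them, -7.04.

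Between genes, levels were compared per gene length, in the FPKM values the authors deposited. In control libraries the highest members were Tnfrsf1a at 109.8 ± 3.79, Tnfrsf12a at 95.0 ± 11.9, Ltbr at 82.8 ± 1.42, Tnfrsf11b at 45.1 ± 3.07, Tnfsf12 at 17.8 ± 0.582 and Tnfrsf1b at 15.6 ± 1.50 FPKM (SD over 3 libraries). Single values of Tnfrsf12a (105.8, 97.1 and 82.3 FPKM) overlapped those of Ltbr (82.9, 84.2 and 81.3 FPKM) and of Tnfrsf1a (111, 113 and 105.5 FPKM), so the order of Tnfrsf12a among these did not hold beyond its spread. Fas (7.56 ± 0.230 FPKM) and Tnfsf18 (7.28 ± 1.09 FPKM), the next in order, overlapped as well.

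In progesterone libraries Tnfrsf12a was first at 172 ± 4.81 FPKM, followed by Tnfrsf1a at 82.1 ± 0.336, Ltbr at 68.4 ± 2.48, Tnfrsf11b at 36.0 ± 2.70 and Tnfsf12 at 12.5 ± 0.896 FPKM. Tnfrsf12a then stood apart, since its lowest value of 167 FPKM was above the highest value of Tnfrsf1a, 82.5 FPKM. In rank by FPKM among the 42 members, Tnfrsf9 moved from 11 to 26, Tnfsf10 from 14 to 32 and Ngfr from 19 to 10. The progesterone ranks of Tnfrsf9 (9, 2 and 6 counts) and Tnfsf10 (0, 1 and 3 counts) rest on few counts and are not precise. Of the FPKM summed over all 24 receptor genes, Tnfrsf12a held 25.0% in control and 44.5% in progesterone libraries, Tnfrsf1a 29.0% and 21.3%, Ltbr 21.9% and 17.7%, and Tnfrsf1b 4.14% and 1.18%. The summed receptor level was 767, 759 and 727 CPM in control and 680.0, 666 and 658 CPM in progesterone libraries. These receptor CPM sums did not overlap. They are not scaled to gene length, so long genes weigh more in them. By the group means, the FPKM summed over the 24 receptor genes did not fall with progesterone. The lower CPM sums thus do not hold per gene length.

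Ratios of FPKM within a library describe receptors and ligands known to pair, and no test was run on them. The ratio of Tnfrsf1a to Tnfrsf1b, the TNF receptors, was 7.57, 7.61 and 6.08 in control and 17.9, 18.3 and 17.8 in progesterone libraries. Both genes fell, and Tnfrsf1b fell further. The ratio of Tnfrsf12a to its ligand gene Tnfsf12 was 5.99, 5.59 and 4.46 in control and 14.9, 13.2 and 13.3 in progesterone libraries, with the receptor gene higher and the ligand gene lower. The ratio of Eda2r to Eda was 2.10, 2.24 and 2.39 in control and 5.91, 4.73 and 4.64 in progesterone libraries. In the opposite direction, the ratio of Tnfrsf9 to its ligand gene Tnfsf9 was 2.48, 3.95 and 3.33 in control and 0.127, 0.0412 and 0.106 in progesterone libraries. Tnfrsf9 passed the count filter through the control group alone and had 9, 2 and 6 counts in the progesterone libraries, so its ratios there are imprecise. Groups did not overlap in these 4 ratios, whereas the ratio of Tnfrsf25 to its ligand gene Tnfsf15 did overlap (0.396 to 0.600 in control and 0.404 to 1.41 in progesterone libraries). The CPM groups of 68.6% of all genes tested did not overlap either. No such share was worked out for ratios, which restate the changes of single genes given above. The ratio of Edar to Eda overlapped too, at 0.0843 to 0.107 in control and 0.104 to 0.361 in progesterone libraries.

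**Figure D4:**
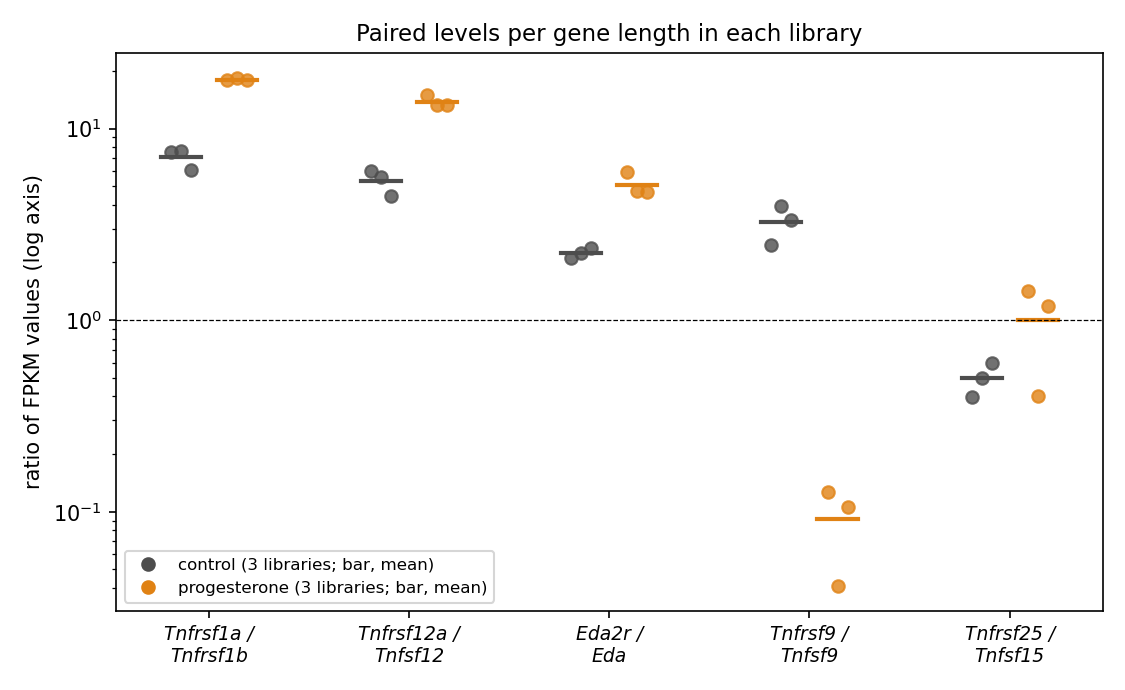
Ratio of the FPKM of one gene to that of its partner in each of the 6 libraries, on a log axis, with a bar at each group's mean; the dashed line marks a ratio of 1. Tnfrsf12a to Tnfsf12 lies at 4.46 to 5.99 in control and 13.2 to 14.9 in progesterone libraries. Tnfrsf9 to Tnfsf9 falls from above the line to below it, where Tnfrsf9 had 9, 2 and 6 counts.

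Genes that carry the signal inside the cell were read from a list of 40 adaptors, kinases, ubiquitin enzymes and death effectors, of which 39 were tested. In that list 26 genes were lower, 5 were higher and 8 did not pass, with a median log2 fold change of -0.41 beside 0.00 over all genes. Lower genes were 66.7% of those tested, against 31.8% of all genes. The list was chosen with earlier results of these data known, so its share and median are descriptions. Birc3, the inducible ubiquitin ligase cIAP2 of TNF receptor complexes, was 44.1 ± 2.50 CPM in control and 3.99 ± 0.173 CPM in progesterone libraries (SD, log2 fold change -3.47 ± 0.08 SE, edgeR adjusted p = 6.2e-15). Mlkl, the executor of necroptosis, was 119.7 ± 3.91 and 11.1 ± 1.44 CPM (SD, log2 fold change -3.43 ± 0.07 SE, edgeR adjusted p = 6.3e-15). The feedback inhibitors Tnfaip3 (A20) and Tnip1 fell by 2.34 and 1.66 on the log2 scale, to 13.1 ± 0.668 CPM from 66.2 ± 3.80 CPM and to 73.3 ± 2.07 CPM from 233 ± 5.98 CPM. Daxx, named for binding the Fas death domain, fell by 1.68 to 42.4 ± 2.77 CPM from 136 ± 5.08 CPM.

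The 5 higher genes of the signalling list had log2 fold changes from 0.12 to 0.94. Siva1, which binds CD27, was 14.7 ± 1.14 CPM in control and 28.2 ± 1.54 CPM in progesterone libraries (SD, log2 fold change 0.94 ± 0.08 SE, edgeR adjusted p = 4.3e-08). Fadd, the adaptor of the death-inducing complex, was 24.5 ± 1.22 and 33.9 ± 1.45 CPM (SD, log2 fold change 0.47 ± 0.06 SE, edgeR adjusted p = 1.4e-05). Chuk (IKK alpha), Tab1 and Tab2, which belong to the kinase steps below TRAF proteins, had log2 fold changes of 0.31, 0.17 and 0.12. The number of higher genes was 3 without control replicate 1, without control replicate 2 or without progesterone replicate 1. Edaradd, the adaptor of Edar, was below the filter with 33 counts in control and 4 in progesterone libraries.

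Of 35 genes listed as NF-kB subunits, inhibitors and textbook NF-kB targets, 33 were tested, 27 were lower, 1 was higher and 5 did not pass, with a median log2 fold change of -1.65. Lower genes were 81.8% of those tested, against 31.8% of all genes, but 4 of them (Ccl5, Il6, Mmp3 and Nos2) passed the count filter through the control group alone, so the share and the median are descriptions. By adjusted p the leading genes were the chemokine genes Ccl5 (6424 counts in control and 1 count in progesterone libraries), Ccl7 (log2 fold change -3.63), Ccl2 (-3.29) and Cxcl10 (-9.32), and Sod2, mitochondrial superoxide dismutase, at 739.6 and 145 CPM (log2 fold change -2.35). Several of these genes are also targets of interferon. The 1 higher gene was Bcl2a1, a survival factor of leukocytes, at 2.42 ± 0.604 CPM in control and 10.5 ± 0.880 CPM in progesterone libraries (SD, log2 fold change 2.12 ± 0.17 SE, edgeR adjusted p = 2.7e-08). Its direction was that of the macrophage markers given above, whose part in it was not tested.

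A list of 17 genes covers the proteases that shed ligands and receptors and the proteins that bind TNF superfamily mRNAs. All 17 were tested, of which 10 were lower, 5 were higher and 2 did not pass, with a median log2 fold change of -0.18. Lower genes were 58.8% of the list against 31.8% of all genes, while the 29.4% that were higher were near the 31.2% of all genes. This list too was chosen with earlier results known, so its shares and median are descriptions. Under upper quartile scaling 7 were lower and 7 higher. Adam17, the protease that releases TNF and sheds its receptors, was 168 ± 4.19 CPM in control and 85.7 ± 6.48 CPM in progesterone libraries (SD, log2 fold change -0.97 ± 0.05 SE, edgeR adjusted p = 2.4e-10). Its trafficking partner Rhbdf2 (iRhom2) was 42.2 ± 1.24 and 15.3 ± 1.39 CPM (SD, log2 fold change -1.47 ± 0.07 SE, edgeR adjusted p = 8.3e-11). Timp3, the tissue inhibitor of ADAM17, was higher, at 57.3 ± 1.99 CPM in control and 156 ± 4.46 CPM in progesterone libraries (SD, log2 fold change 1.44 ± 0.04 SE, edgeR adjusted p = 2.5e-13). Thus the ADAM17 gene and its partner fell and the gene of its inhibitor rose.

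Zc3h12a (regnase-1, which degrades inflammatory mRNAs), Sppl2a, which cleaves membrane stubs of TNF, and Furin, which activates ADAM17 and several ligands, fell by 1.17, 0.91 and 0.52 on the log2 scale. The mRNA-binding genes Hnrnpd, Elavl1, Rc3h2 and Zfp36l2 had log2 fold changes of 0.39, 0.28, 0.22 and 0.35 and completed the 5 that were higher. Zfp36l2 was nearest to the threshold among them (edgeR adjusted p = 0.035).

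**Figure D5:**
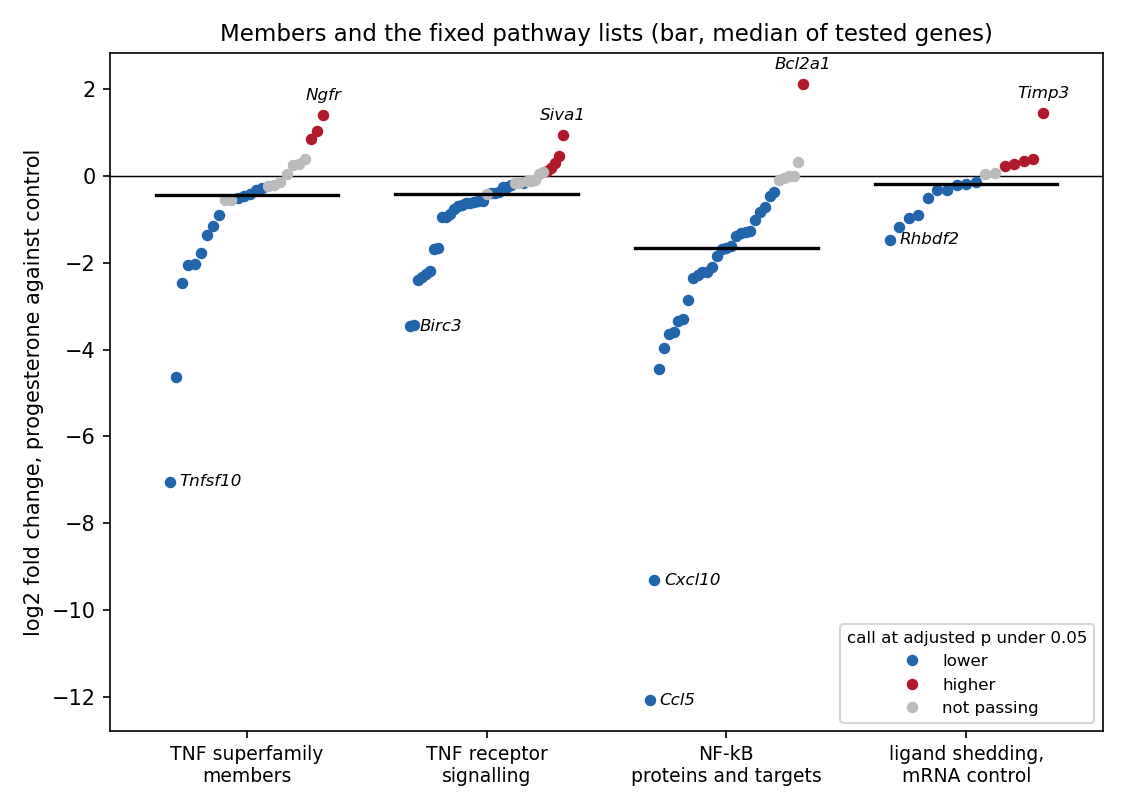
Log2 fold change of progesterone against control for the tested members (26) and for the signalling (39), NF-kB (33) and shedding and mRNA control (17) lists, coloured by call, with a bar at each median. The medians are -0.43, -0.41, -1.65 and -0.18, and all genes together have a median of 0.00.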

How the data were processed

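RNA-seq of mRNA-enriched RNA was measured in 6 libraries, 3 control and 3 progesterone, grouped by their titles. Libraries were made with a TruSeq RNA kit, per the labels' protocols; whether they keep strand is not stated there, so reads of overlapping genes on opposite strands cannot be told apart. Per the submitters' processing notes, the tool was Bowtie 0.12.2 and the build mm8, a mouse build, although rows carry rat Ensembl identifiers; the rat build, annotation and counter behind the values: not given in the sources used here. Raw, whole-number counts for each gene were deposited by the authors. They also deposited FPKM values, in which the divisor implied by counts and lengths was 98.8% to 101.6% of each library's count total. Gene coordinates come from the table, which does not name its rat build.

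Counts of all 33565 rows were filtered with filterByExpr (minimum count 10, minimum total 15), which left 15075, and tested with edgeR 4.0.16 in R 4.3.3 (TMM, robust glmQLFit, glmQLFTest, Benjamini-Hochberg adjustment over all genes tested, called at 0.05). SEs of log2 fold changes came from the F statistics, and CPM values are scaled by TMM factors of 0.984 to 1.01. Rows without a name (682) stayed in the table and held 0.888% of control and 0.844% of progesterone counts. Members that passed are given in every library, and up to 5 genes per direction with the smallest adjusted p from each pathway list; other genes were named after their values were seen, for low counts, copies or neighbours. The members and lists were chosen with earlier results of these data known. Chi-square values per degree of freedom of 5.57 to 9.79 for replicate pairs exceeded sampling noise, so no library was counted as a duplicate. Total counts limit the precision of genes with few counts, and floors of 3 counts cover counting error only. The test was checked on simulated counts. No batch is given in the labels. Some marker genes are not reported here. Alternatives were RLE, upper quartile and library total scaling, no filter, at least 1 CPM in 3 libraries, leaving out each replicate, DESeq2 1.42.0, a block for the replicate number, and limma 3.58.1 on log2(FPKM + 1) and log2(FPKM + 0.1).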

Additional observations from a re-analysis of the deposited data

How the results depend on the processing

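Under the 15 alternatives, all 17 members that changed kept their direction and passed. With 1 replicate left out in turn, 3 to 4 members were higher and 14 to 16 lower, and the signalling list had 3 to 5 higher genes. Under the other alternatives 3 to 4 members were higher and 14 to 17 lower. Edar, whose log2 fold change of 0.03 did not pass, ran from -0.43 to 0.30 with a replicate left out (-0.07 without control replicate 3, -0.43 without progesterone replicate 2) and was -0.014 with limma on log2(FPKM + 0.1) and -0.0023 with the replicate block, passing in none. The cause was not tested. With the replicate number as a block, 3 members were higher and 14 lower, and 4691 genes were higher and 4817 lower; it changed no call of a member. Deviations of samples that share a number correlated at 0.0758, 0.0232 and 0.0142, and those of samples with different numbers at -0.0856 to 0.0606, so the numbers were not taken to pair the samples. Over all genes, counts of changed genes ran from 4265 to 5843 higher and from 3879 to 5078 lower. Depth limits the 16 members below the filter, whose levels are near the counting floor, and strand, replicate origin and the cell make-up of the cultures cannot be checked from the labels.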

Other observations

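Several member genes lie close together in the table's coordinates, and close pairs did not always give the same call. Of 10 pairs of neighbours within 100 kb, Tnfrsf1a and Ltbr, 35727 bases apart on chromosome 4, were both lower with progesterone (log2 fold changes -0.42 and -0.27). Tnfsf12 and Tnfsf13, 827 bases apart, had log2 fold changes of -0.51 and -0.13, of which the first passed. Tnfsf15 and Tnfsf8, 94691 bases apart on chromosome 5, had log2 fold changes of -1.37 and -0.22, of which the first passed. The difference within each pair was not tested. In the other 7 pairs at least 1 gene was below the count filter.

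An assembled row without a gene name, annotated with a TNF receptor cysteine-rich region, lies at chr1:216844438-216865340, 15786 bases from the Tnfrsf26 row on the same strand. It read 22.0, 21.6 and 21.3 CPM in control and 15.2, 15.9 and 14.9 CPM in progesterone libraries (log2 fold change -0.50 ± 0.07 SE, edgeR adjusted p = 2e-05). The groups did not overlap, and the fall was smaller than the -2.05 of Tnfrsf26, a difference that was not tested. Relt, a receptor gene of the family whose symbol the selection rule does not cover, read 4.41, 4.12 and 4.42 CPM in control and 7.58, 10.5 and 6.06 CPM in progesterone libraries (log2 fold change 0.90 ± 0.18 SE, edgeR adjusted p = 0.00056). Every progesterone value of Relt was above every control value.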
